A study of Mus musculus with 4 samples.

Results

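The pre-mRNA splicing factors of large intestinal (LI) Treg cells were described in control mice and in mice whose Treg cells lack Setd2, the histone H3K36 methyltransferase. They were chosen by gene name as the Srsf, Hnrnp, Sf3a, Sf3b, U2af, Prpf, Snrnp, Snrp, numbered Lsm and numbered Rbm genes together with *Ddx46*, *Txnl4a*, *Txnl4b*, *Eftud2*, *Sart1*, *Usp39*, *Ptbp1*, *Ptbp3*, *Tra2a* and *Tra2b*. The rule matched 141 of the 53379 genes in the table, after 7 pseudogene names were dropped.

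RNA-seq was performed on CD3+CD4+YFP+ cells sorted from the large intestine of adult littermates on a C57BL/6 background at steady state. Control mice carried the Foxp3-YFPcre allele with 1 floxed and 1 intact copy of *Setd2* (Setd2 flox/+), and KO mice carried the same Cre allele with both copies floxed (Setd2 flox/flox). Cre is driven by *Foxp3*, so *Setd2* is deleted in cells that express Foxp3, and the control Treg cells have themselves lost 1 copy. Each group had 2 libraries, and each library was a pool of 2 to 3 mice, and the libraries of a group therefore differ as pools of animals do.

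The spliceosome removes introns in ordered steps. The U1 snRNP binds the 5′ splice site, and U2AF and the U2 snRNP mark the 3′ end of the intron and the branch point. The U4/U6.U5 tri-snRNP then joins, and helicases remodel the complex for the cutting and joining reactions. SR proteins and hnRNPs bind the transcript itself and favour or oppose the use of single exons. In T cells, hnRNP proteins such as Hnrnpl and Hnrnpll are known for the choice of exons in the *Ptprc* (CD45) transcript. The H3K36me3 mark that Setd2 places along transcribed genes has been linked to alternative splicing.

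Values are FPKM, counts of sequenced fragments scaled to transcript length and library size, which can be compared between genes of different length. The 4 libraries had nearly the same sum of FPKM, from 774923 to 774999, because the columns share 1 distribution of values, and the depth of each library is unknown. In bulk RNA, fewer cells of a kind and less RNA per cell cannot be told apart. The T cell markers *Cd3e*, *Cd3g* and *Cd4* were between 131 and 647 in every library, and *Foxp3* itself was low, between 2.62 and 5.61. Of the 4 other Treg markers, *Tnfrsf18* (1899 to 2218) overlapped between the groups. *Ctla4* was at 1593 and 1701 in control and 2160 and 2310 in KO (unadjusted p = 0.00491 in limma). *Ikzf2* had 121 and 116 in control and 84.1 and 98.4 in KO (unadjusted p = 0.0183), and *Il2ra* had 184 and 180 against 152 and 163 (unadjusted p = 0.0905), and no Treg marker was called after adjustment. Control 2 stood apart in having 28426 genes at 0, where the other libraries had 33223 to 33957. *Cd8a* did not exceed 0.35 and *Cd8b1* was between 2.08 and 2.96, while the plasma cell gene *Jchain* (112 to 169) and the myeloid gene *Lyz2* (128 to 168) were present in all libraries, with overlapping groups. The summed level of 4 epithelial markers was 32.9 and 35.4 in the control libraries and 27.0 and 28.3 in the KO libraries, and its members differed in direction. *Epcam* had 28.7 and 30.8 in control and 19.6 and 21.1 in KO (unadjusted p = 0.00644 in limma), *Krt18* had 4.23 and 4.52 against 7.22 and 7.18 (unadjusted p = 0.0207), and *Krt8* and *Krt20* did not exceed 0.11. The stromal collagen genes *Col1a1* and *Col3a1* did not exceed 0.68. *Pecam1*, an endothelial marker that is not specific to stroma, had 34.7 and 36.3 in control and 49.3 and 42.7 in KO (unadjusted p = 0.0288 in limma). The part of these cells in the results was not tested. *Setd2* had an FPKM of 38.2 and 27.4 in the control libraries and 26.3 and 36.3 in the KO libraries. The value covers the whole gene and not the deleted part, so it does not check the genotype. The libraries were grouped by their titles, in which the libraries called control here are named WT.

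Most splicing factors were clearly expressed in both groups. Of the 141 genes, 120 were tested, which required a protein-coding gene whose mean FPKM exceeded 5 in control or in KO. The 21 others were 18 protein-coding genes, among them *Prpf19*, *Rbm20* and *Rbm46*, with no value above 4.73, and 3 noncoding genes. Means over the 4 libraries ran from 4.30 for *Rbm12b1* to 1780 for *Rbm39*, and 31 of the 120 were above 100. The 141 genes together took 2.00% and 1.90% of all FPKM in the control libraries and 1.91% and 1.87% in the KO libraries, and the KO values lie on both sides of that of control 2.

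KO was compared with control by limma on log2(FPKM + 1) over the 7639 genes that passed the same filter, and a gene was called at a Benjamini-Hochberg adjusted p below 0.05. Of the 120 splicing factors, 1 was called, *Txnl4b*, which fell. Over all genes tested, 0.589% were called, 0.314% higher and 0.275% lower in KO. At an unadjusted p below 0.05, the threshold of the study, 4 splicing factors were higher and 8 lower in KO, or 10.0% of them, compared with 16.2% of all genes tested (8.61% higher and 7.57% lower). The median log2 ratio, which here is always KO over control of FPKM + 1, was -0.05, and 46 were above 0 and 74 below. Over all genes tested the median was -0.00, with 3772 above 0 and 3867 below. Without control 1, 2 were called, *Txnl4b* and *Rbm5*, and 8 were higher and 9 lower at that unadjusted threshold. Without control 2, 1 was called, and 3 were higher and 11 lower, while none was called in limma without KO 1 (5 higher and 4 lower) or without KO 2 (3 higher and 2 lower). The shares over all genes tested were not computed for these fits without a library. With all libraries, the log2 ratio was larger than 0.5 in either direction for 5 splicing factors, or 4.17%, compared with 9.63% of all genes tested. The KO and control libraries did not overlap for 51 of the 120, or 42.5%, where 47.1% of all genes tested did not overlap. Of these, 19 were above control in both KO libraries (24.2% of all genes tested) and 32 below (22.9%). The smallest p that an exact permutation test of 2 libraries against 2 allows is 0.333, and the p-values from limma lean on the variance it pools over genes.

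**Figure D1:**
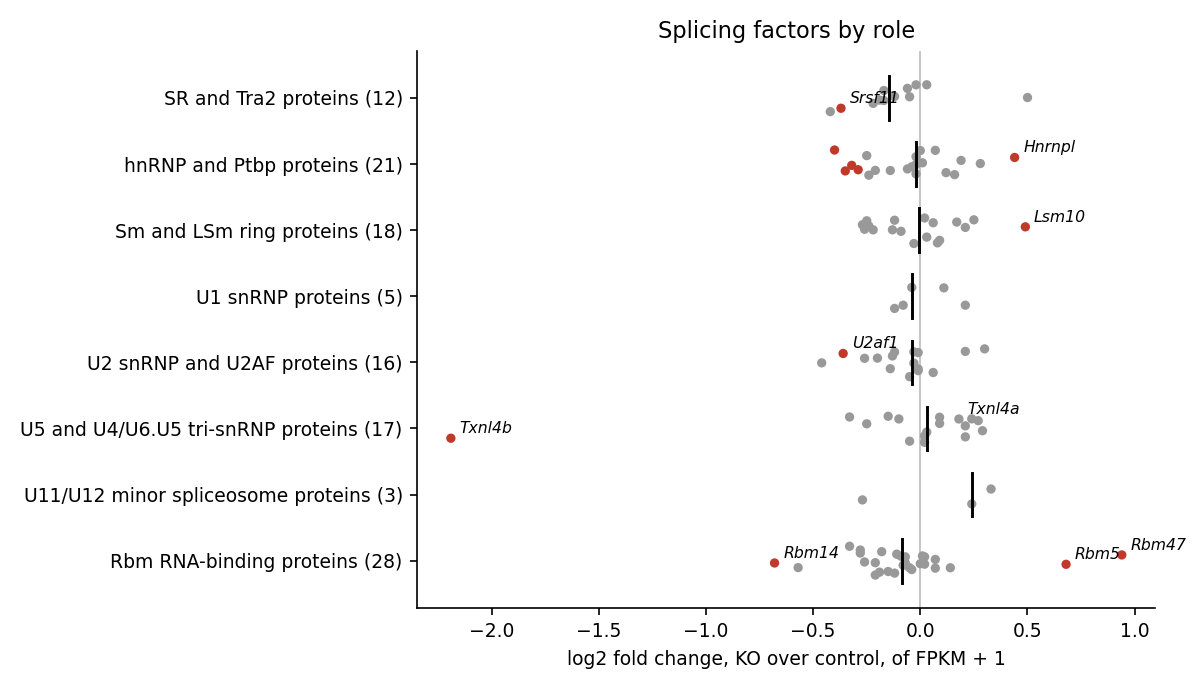
Each point is 1 tested splicing factor, placed by its log2 fold change (KO over control, of FPKM + 1) on the horizontal axis and by its role on the vertical axis, with the number of genes tested in parentheses. Red points have an unadjusted p below 0.05, black bars are medians, vertical scatter within a row has no meaning, and *Txnl4b* at -2.19 lies apart from the other 119.

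*Txnl4b* encodes a thioredoxin-like protein related to Txnl4a, the small Dim1-type subunit of the U5 snRNP, and is known to bind the tri-snRNP protein Prpf6. The gene (ENSMUSG00000031723) lies on the plus strand of chromosome 8 in GRCm38, from 109565892 to 109574051 in the GENCODE annotation, with 2 transcripts that the FPKM does not separate. The control libraries had FPKM values of 24.8 and 21.0, and the KO libraries 4.62 and 3.88. Both KO libraries were far below both control libraries, and within each group the pools were close together. The mean was 22.9 ± 2.71 (SD, n = 2) in control and 4.25 ± 0.523 in KO, 5.39-fold lower. On the log2 scale the ratio was -2.19, with a standard error of 0.188 and an adjusted p of 0.0101 in limma, and was the fifth lowest of all 7639 genes. *Txnl4b* passed the filter on low FPKM through the control group, as its KO mean was below 5, and was singled out for study with this result known. In limma, the adjusted p was 0.0594 without KO replicate 1, 0.0984 without KO replicate 2 and 0.229 without the filter on low FPKM.

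A second splicing gene starts beside *Txnl4b*. *Dhx38*, which encodes the helicase known in yeast as Prp16 that remodels the spliceosome for the second catalytic step, lies head to head with it on the minus strand, from 109548011 to 109565861, and 30 bases separate their first bases. The stretch shown runs over 30 bases from the first base of the marked element and holds most of this gap. It is read on the plus strand of chr8:109565859-109565888 (GRCm38.p6, RefSeq promoter table), its first 3 bases belong to the first exon of *Dhx38*, it ends 3 bases short of *Txnl4b*, and the capitals mark a cyclic AMP response element, TGACGTCA, the palindrome that CREB and ATF factors bind.
Txnl4b and Dhx38 start: TGACGTCActtcctgtcgctggcggccagt

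The element TGACGTCA was found in 1.79% of the 32817 promoter windows of this table, which reach from 250 bases before to 50 bases after each start. It was found in 5 of 119 windows (4.20%) belonging to 96 of the tested splicing factors, those of *Lsm2*, *Snrpa*, *Snrpg*, *Tra2a* and *Txnl4b*. The log2 ratios of the first 4 of these were -0.26, -0.08, -0.27 and -0.17, none with an unadjusted p below 0.05 in limma. The windows were also searched for the ETS core CTTCC and the CCAAT box, on either strand. CTTCC occurred 3 times in the *Txnl4b* window, with a match between *Dhx38* and *Txnl4b*. It was found in 71.4% of all windows and in 79.8% of those of the splicing factors. CCAAT occurred 1 time and was found in 37.4% and 43.7%. The share was thus higher in the splicing factors for each motif searched, and the full set of windows includes genes that were not tested here. A match of letters is a description of the sequence, not a measured binding site.

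The FPKM of *Dhx38* was 27.1 (control 1), 38.5 (control 2), 19.2 (KO 1) and 10.1 (KO 2). Both KO libraries were again below both control libraries, with a wider spread between pools than for *Txnl4b*. The log2 ratio of *Dhx38* was -1.15 (standard error 0.293), and lay between -1.58 without KO 1 and -0.72 without KO 2. In limma its p was 0.00511 before adjustment and 0.134 after, and it was not called. The ratio of *Txnl4b* to *Dhx38* FPKM was 0.915 and 0.545 in the control libraries and 0.241 and 0.383 in the KO libraries. On the other side of *Txnl4b*, the haptoglobin gene *Hp* did not exceed 0.46. The next gene, *Dhodh*, which encodes a pyrimidine synthesis enzyme, had 6.66 and 7.32 in control and 7.02 and 4.26 in KO, with overlapping groups. In a search of all annotated transcripts, neither *Txnl4b* nor *Dhx38* matched another gene at 90% identity over 50% of its length, and no annotated gene overlaps either.

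**Figure D2:**
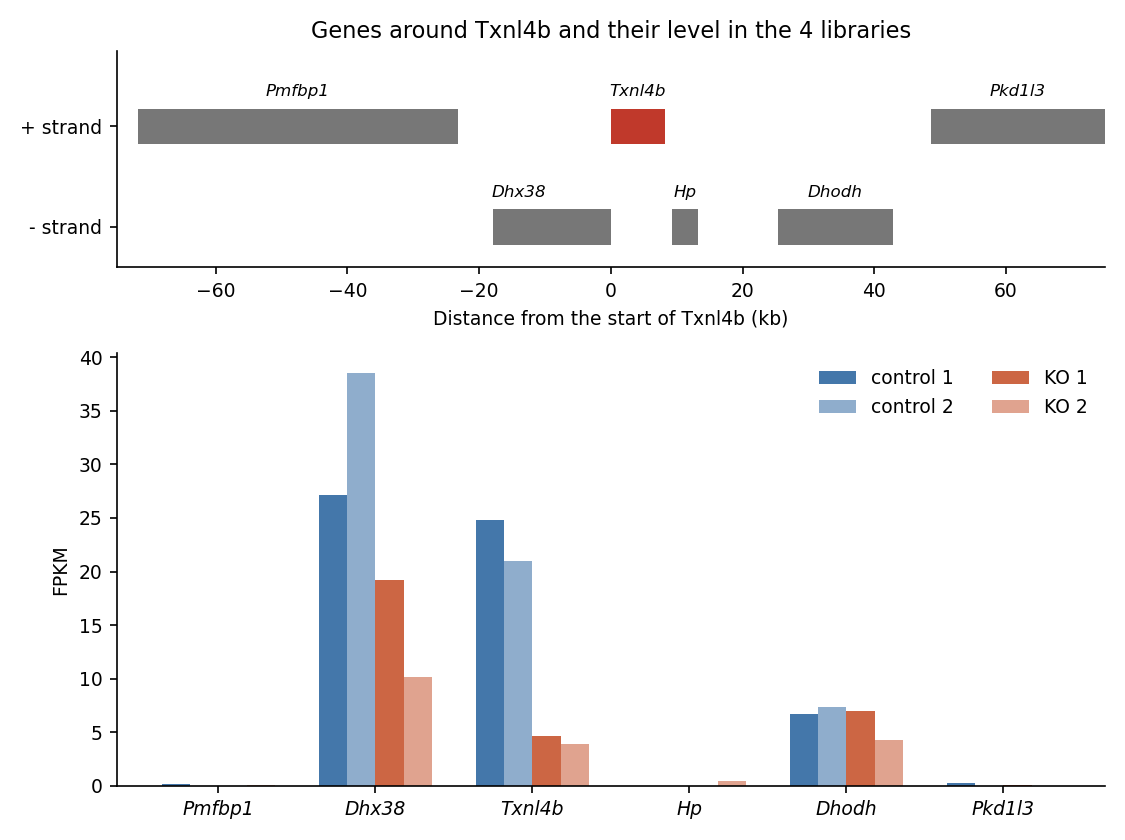
The upper panel maps the genes around *Txnl4b* by strand and distance from its start in kb, with *Txnl4b* in red and *Pkd1l3* cut at the edge. The lower panel gives the FPKM of each gene in the 4 libraries as bars from 0; *Txnl4b* and *Dhx38* are lower in both KO libraries, and *Dhodh* overlaps between the groups.

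Of the 120 splicing factors tested, 17 (14.2%) had a protein-coding neighbour that starts within 300 bases on the opposite strand and runs away from it, compared with 10.1% of all genes tested. In 9 of these pairs both genes were tested, and the log2 ratios had the same sign in 7. Some of these ratios were close to 0, such as those of *Snrnp40* (-0.05) and its neighbour *Zcchc17* (-0.00). The share of same signs over all genes tested was not computed. *Txnl4b* and *Dhx38* were the 1 pair of the 9 in which both genes had an unadjusted p below 0.05. For *Srsf11* and *Lrrc40*, whose starts are 22 bases apart, the log2 ratios were -0.37 and -0.20. The signs were opposite for *Lsm1* and *Bag4* (0.17 and -0.10), with 0 bases between their starts, and for *Prpf4* and *Cdc26* (-0.10 and 0.01).

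The U5 snRNP and the tri-snRNP, with the Prp proteins that act beside them, contributed 17 tested genes, of which *Txnl4b* was the 1 with an unadjusted p below 0.05. This is 5.88%, compared with 16.2% of all genes tested. The median log2 ratio of the 17 was 0.03, with 11 above 0 and 6 below. *Txnl4a*, the close relative of *Txnl4b* and a core subunit of U5, had 84.1 and 83.1 in control and 94.3 and 94.8 in KO. Both KO libraries were higher by a small step, with a log2 ratio of 0.18 (standard error 0.110, adjusted p = 0.473 from limma). A gene annotated on the same strand, *Gm16286*, overlaps *Txnl4a* and reached an FPKM of 508, so reads in shared sequence may be assigned to either. The ratio of *Txnl4b* to *Txnl4a* was 0.295 and 0.253 in control and 0.0490 and 0.0409 in KO.

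*Prpf6*, the tri-snRNP partner of Txnl4b, had 28.6 and 29.0 in control and 24.3 and 24.0 in KO. These groups did not overlap, but the log2 ratio of -0.25 had an unadjusted p of 0.103 in limma. The large U5 proteins *Prpf8*, the scaffold of the catalytic centre, and *Snrnp200*, the helicase that unwinds U4 from U6, had log2 ratios of 0.02 and 0.21. The U5 GTPase *Eftud2* had 40.1 and 41.9 in control and 38.3 and 27.5 in KO, a log2 ratio of -0.33 (adjusted p = 0.405 from limma). The tri-snRNP proteins *Sart1* and *Usp39* had log2 ratios of 0.27 and 0.03. *Snrnp40* was the most abundant of this group at 125 ± 25.4 in control and 120 ± 2.06 in KO (SD, n = 2). *Prpf18*, which acts in the second catalytic step, had 40.7 and 37.3 in control and 47.1 and 48.3 in KO, and its log2 ratio of 0.29 had an unadjusted p of 0.0545 in limma.

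**Figure D3:**
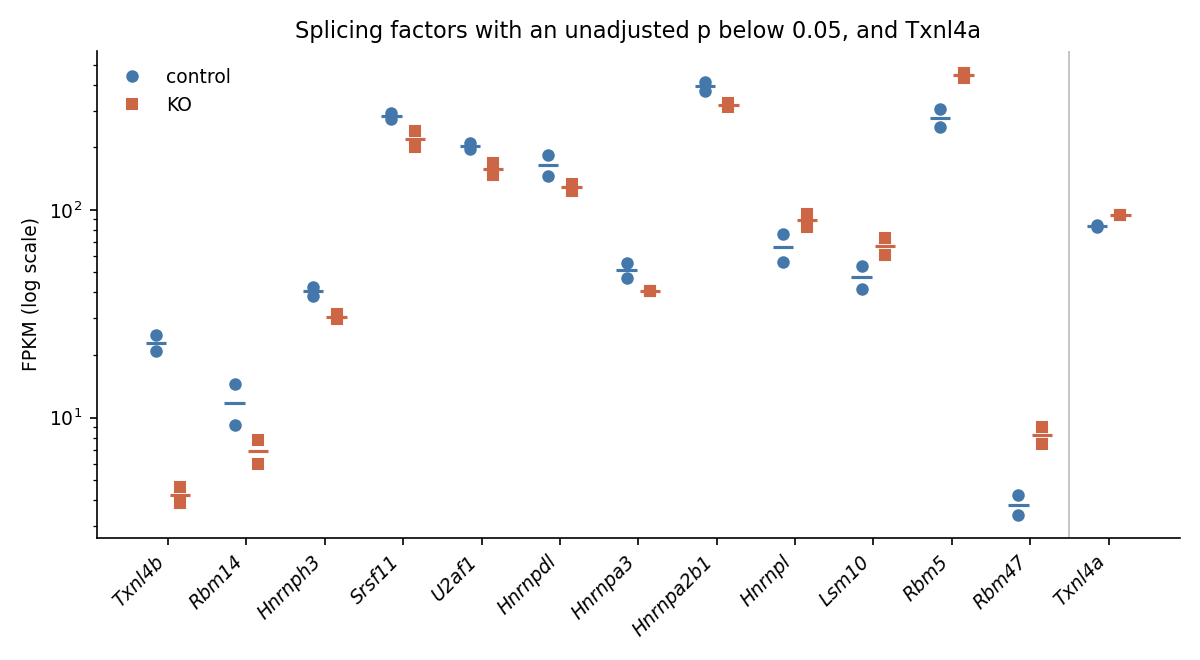
FPKM on a log axis of the 12 splicing factors with an unadjusted p below 0.05, ordered by log2 fold change, and of *Txnl4a* right of the grey line. Blue circles are the 2 control libraries, orange squares the 2 KO libraries and short bars the group means. No gene shown has overlapping groups, which the choice of the 12 by p favours, and the step of *Txnl4b* is the widest.

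Among the proteins that recognise the ends of the intron, the 16 tested U2 snRNP and U2AF genes had a median log2 ratio of -0.04, and 13 were below 0. Of them, 1 (6.25%) had an unadjusted p below 0.05, compared with 16.2% of all genes tested. *U2af1*, the small U2AF subunit that reads the AG at the 3′ splice site, had 209 and 195 in control and 147 and 167 in KO. Both KO libraries were lower, by a log2 ratio of -0.36 (standard error 0.117, unadjusted p = 0.0162 and adjusted p = 0.215 from limma). The transcript of *U2af1* is 99.72% identical to that of *Gm10232* over 69% of its length, and *Gm10232* had an FPKM of up to 8.81. *U2af1l4*, a relative of *U2af1*, had 66.8 and 52.3 in control and 71.5 and 74.8 in KO, but it overlaps *Psenen* on the other strand, which reached 194, and a second gene listed under its name. *Sf3b1*, the branch point protein of U2 and the most abundant of this group, had 543 and 545 in control and 557 and 528 in KO, a log2 ratio of -0.01. The U2 helicase *Ddx46* had 24.7 and 23.7 against 21.5 and 23.1. Of the 5 tested U1 genes, none had an unadjusted p below 0.05, and the median log2 ratio was -0.04.

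Most Sm and LSm proteins form the rings around the snRNAs. The group was matched by name, and some of its members, such as *Lsm1*, *Lsm12* and *Lsm14a*, are not parts of those rings. The 18 tested had a median log2 ratio of -0.00, with 9 on each side of 0. *Snrpb*, the most abundant, had 412 and 456 in control and 425 and 373 in KO. *Lsm10* had 53.5 and 41.6 in control and 60.3 and 73.2 in KO, a log2 ratio of 0.49 (unadjusted p = 0.0204 and adjusted p = 0.222 from limma). It was the 1 gene of the group with an unadjusted p below 0.05, or 5.56%, compared with 16.2% of all genes tested. Lsm10 is known as a subunit of the U7 snRNP, which trims the 3′ end of histone mRNA. Of the minor spliceosome, which removes a rare class of introns, 3 genes were tested, and they differed in direction. *Snrnp25* had 49.0 and 43.6 in control and 50.1 and 68.0 in KO (log2 ratio 0.33, unadjusted p = 0.0886 in limma). *Rbm48* had 47.1 and 41.0 in control and 37.0 and 35.6 in KO (log2 ratio -0.27, unadjusted p = 0.0816), and *Snrnp48* had a log2 ratio of 0.24.

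SR proteins bind exonic enhancers and promote exon use. Of the 12 SR and Tra2 genes tested, 10 had a log2 ratio below 0, with a median of -0.14. The share with an unadjusted p below 0.05 was 8.33%, compared with 16.2% of all genes tested, and came from 1 gene. This was *Srsf11*, with 292 and 273 in control and 238 and 200 in KO, a log2 ratio of -0.37 (unadjusted p = 0.0192 and adjusted p = 0.222 from limma). *Srsf1*, the SR protein also known as ASF/SF2, was at 11.2 and 7.74 in control and 11.7 and 15.7 in KO, a log2 ratio of 0.50 (unadjusted p = 0.0661). *Srsf5* was the most abundant, at 928 and 899 in control and 881 and 868 in KO, and its transcript is 99.01% identical to that of *Gm12966* over 52% of its length. *Tra2a* and *Tra2b* had overlapping groups, with log2 ratios of -0.17 and -0.05. The summed FPKM of the 13 SR and Tra2 genes was 3323 in control 1, above the 2781 of control 2 and the 2871 and 2794 of the KO libraries.

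The hnRNP group held the most genes with an unadjusted p below 0.05, 5 of 21, or 23.8%, compared with 16.2% of all genes tested. Of these 5 genes, 4 were lower in KO. *Hnrnpa2b1*, a core protein of hnRNP particles, had 374 and 412 in control and 329 and 312 in KO, a log2 ratio of -0.29 (adjusted p = 0.256 from limma). *Hnrnph3* had 42.6 and 38.6 in control and 29.7 and 31.4 in KO, a log2 ratio of -0.40 (adjusted p = 0.222). *Hnrnpdl* had 184 and 146 in control and 124 and 133 in KO, and *Hnrnpa3* had 46.8 and 55.7 in control and 40.7 in each KO library, which gave log2 ratios of -0.35 and -0.32. No KO library reached a control library for any of these 4 genes, which were picked by p. Of the 21 genes of the group, 52.4% did not overlap, compared with 47.1% of all genes tested.

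*Hnrnpl*, which silences variable exons of CD45 mRNA, was the hnRNP gene higher at an unadjusted p below 0.05, with 76.4 and 55.9 in control and 95.9 and 82.8 in KO. Its log2 ratio was 0.44 (standard error 0.170, unadjusted p = 0.0340 and adjusted p = 0.267 from limma). Its relative *Hnrnpll* had 27.3 and 23.4 in control and 23.5 and 27.6 in KO, a log2 ratio of 0.01. *Ptbp1* and *Ptbp3*, the polypyrimidine tract binding proteins that the rule lists, had log2 ratios of -0.24 and 0.19, with unadjusted p-values of 0.0898 and 0.179 in limma. *Hnrnpk* was the most abundant of the group, with 973 and 950 in control, 1005 and 920 in KO and a log2 ratio of 0.00. The median of the 21 genes was -0.02.

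The numbered Rbm genes are a mixed group of RNA-binding proteins, and 28 were tested, with a median log2 ratio of -0.08. Of these, 3 (10.7%) had an unadjusted p below 0.05, compared with 16.2% of all genes tested. *Rbm5*, a regulator of the splicing of apoptosis genes, had 306 and 250 in control and 433 and 456 in KO, 278 ± 39.1 against 445 ± 16.3 (SD, n = 2). Each KO library exceeded each control library, and the log2 ratio was 0.68, with a standard error of 0.127 and an adjusted p of 0.0736 in limma, the smallest among the splicing factors after that of *Txnl4b*. It passed the threshold without control replicate 1, with an adjusted p of 0.0287 in limma, and did not pass without control replicate 2 (0.0970), KO replicate 1 (0.285) or KO replicate 2 (0.445). With all libraries and other pseudocounts, filters, centring, trend or a replicate block, its adjusted p lay between 0.0720 and 0.415. *Rbm5* (chromosome 9, 107740371 to 107770996) lies on the chromosome of *Setd2*, with its lowest coordinate at -2.79 Mb from the start of that gene. Within 20 Mb of *Setd2*, 24.2% of the genes tested had an unadjusted p below 0.05, compared with 16% elsewhere, and the part of this in the value of *Rbm5* was not tested. *Rbm6*, its neighbour on the same strand, had 27.2 and 32.8 in control and 26.9 and 30.1 in KO, a log2 ratio of -0.07.

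*Rbm47*, which serves as a cofactor of cytidine deamination of mRNA, was low, with 4.22 and 3.38 in control and 7.48 and 8.96 in KO. Its log2 ratio was 0.94 (standard error 0.225, unadjusted p = 0.00371 and adjusted p = 0.119 from limma), and it passed the filter through the KO group alone. *Rbm14*, a nuclear coactivator found in paraspeckles, had 9.17 and 14.4 in control and 7.79 and 5.98 in KO, a log2 ratio of -0.68 (adjusted p = 0.256 from limma), and *Gm21992*, on the same strand, overlaps it with an FPKM of up to 10.5. *Rbm39*, a U2AF-related factor and the most abundant of all splicing factors here, had 1818 in control 1 and in both KO libraries and 1661 in control 2. Equal ranks take equal values in columns of a common distribution.

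The other genes of the pathway were described beside the named families. A list of 122 further splicing genes, from the Prp19 complex and step helicases to SR kinases, exon junction proteins and snRNP assembly factors, held 110 tested genes. None was called at an adjusted p below 0.05 in limma. At an unadjusted p below 0.05, 4 were higher and 9 lower in KO, or 11.8%, below the 16.2% of all genes tested, and the median log2 ratio was -0.03.

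Of the 33 tested genes of the Prp19 complex and step helicases, 7 had an unadjusted p below 0.05, or 21.2%, compared with 16.2% of all genes tested. Of the 3 further minor spliceosome genes tested, 2 did, in opposite directions, *Zmat5* and *Rnpc3*, the latter with 20.7 and 14.5 in control, 13.7 and 9.19 in KO and a log2 ratio of -0.59 (unadjusted p = 0.0444 in limma). *Xab2*, which sits in the intron-binding complex, had 82.9 and 82.8 in control and 54.6 and 45.4 in KO, a log2 ratio of -0.72 (adjusted p = 0.0719 from limma). *Isy1*, which belongs to the same intron-binding complex, had 175 and 227 in control and 133 and 131 in KO, a log2 ratio of -0.59 (adjusted p = 0.119). *Dhx38* is the third of the lower genes. The smallest p-values among the higher genes belonged to *Ppil1*, a cyclophilin of the active spliceosome, *Zmat5*, a U11/U12 protein, and *Srpk2*, a kinase of SR proteins. Their log2 ratios were 0.56, 0.53 and 0.44, and their adjusted p-values 0.115, 0.135 and 0.170 from limma. In each of these 6 genes the KO and control libraries did not overlap, but they were picked by p, which favours such genes. Of the 110 tested genes of the list, 45.5% did not overlap, compared with 47.1% of all genes tested.

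**Figure D4:**
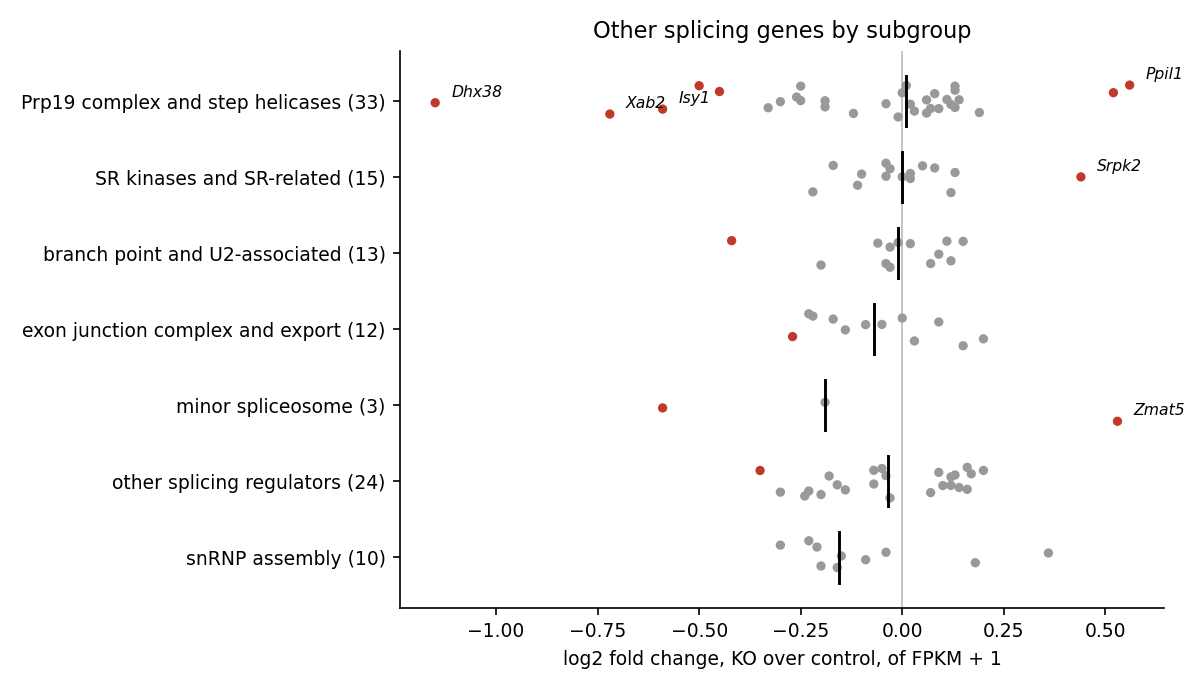
Log2 fold changes (KO over control, of FPKM + 1) of the 110 tested splicing genes outside the named families, by subgroup, with the number tested in parentheses. Red points have an unadjusted p below 0.05 and black bars are medians; *Dhx38* at -1.15 lies farthest from 0, and the medians of the larger subgroups lie near 0.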

How the data were processed

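Poly(A) RNA of 2 control and 2 KO libraries was sequenced in paired reads of 150 bp. The authors mapped reads to GRCm38 with STAR 2.5 and quantified genes with RSEM 1.2 on the GENCODE M16 annotation, and deposited FPKM for 53379 genes. The 5000 highest ranks differ by at most 0.173% between columns, as after quantile normalization, which the sources used here do not name, so a change in total mRNA cannot be seen and no count test applies. Depth is unknown, so no counting interval was computed.

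Gene types and positions came from GENCODE M21 on GRCm38 (53274 identifiers found). Protein-coding genes whose mean FPKM exceeded 5 in control or KO were kept. KO was tested against control without covariate on log2(FPKM + 1) with limma 3.58.1 (R 4.3.3) and its trended empirical Bayes step. In simulated data, 64.5% of 200 genes changed by a log2 ratio of 1 were called. The simulation drew normal noise with variances from the fit itself, so it does not test the assumptions of the fit. Adding 1 understates the change of low genes.

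Splicing factors and lists were chosen with earlier results of these data known. Named genes were those the rule lists singly, the 8 with the smallest p in each direction, the most abundant tested gene of each role (1 is not reported here), the genes beside *Txnl4b*, and 3 per direction of the pathway list. *Prpf6*, *Prpf8*, *Snrnp200*, *Hnrnpll*, *Rbm6*, *Rbm48*, *Snrnp48*, *Rnpc3* and the holders of the promoter element were named after their values were seen. So were the pairs of neighbours with nearby starts. Python 3.11.15, pandas 2.3.3 and matplotlib 3.10.9 were used. Alternatives were other pseudocounts and filters, all gene types, median centring, no trend, a replicate block and leaving out each library.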

Additional observations from a re-analysis of the deposited data

How the results depend on the processing

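The fall of *Txnl4b* kept its direction under all alternatives, with log2 ratios from -2.40 (pseudocount of 0.1) to -1.59 (pseudocount of 5), and among the planned ones with all libraries its adjusted p from limma stayed between 0.00641 and 0.0387, except without a filter on low FPKM (-2.19, adjusted p = 0.229). With each library left out the log2 ratio lay between -2.30 and -2.07, and the adjusted p between 0.00669 and 0.0984, above 0.05 without either KO library. Without a filter, 0 splicing factors were called in limma, and 9 (higher) and 6 (lower) had an unadjusted p below 0.05. With each library left out, between 0 and 2 were called, and between 3 and 8 (higher) and between 2 and 11 (lower) had an unadjusted p below 0.05. Among these, counts changed by over 1.5 times without control 1, KO 1 or KO 2. Such changes also came without a filter, for the called and the higher genes, and with the replicate block below, for the lower genes. A group left with 1 library is assumed to vary like the other. With the replicate number as a block, 1 was called, and 4 were higher and 4 lower. The deviations of same-numbered libraries correlated at r = -0.305 across all genes tested and at r = -0.460 across the splicing factors. What the replicate number stands for is unknown, and the source of this correlation was not tested. A crossed pairing (control 1 with KO 2, control 2 with KO 1), chosen after seeing the data, gave 4 calls, with 8 higher and 21 lower. The shares over all genes tested were not computed under any of these alternatives, so the counts cannot be set against them. Of 256 planned values for 32 other genes, 255 kept their direction and side of the threshold; *Hnrnpk* moved from 0.00 to -0.00 with median centring. The sign changed with a library left out for *Hnrnpk* (-0.06 to 0.06), *Rbm39* (-0.00 to 0.13), *Sf3b1* (-0.04 to 0.03), *Snrnp40* (-0.26 to 0.16), *Tra2b* (-0.23 to 0.13) and *Usp39* (-0.07 to 0.12). The causes were not tested. With 2 pools per group and unknown depth, small differences of low genes are least certain.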
